A study of Mus musculus with 17 samples.

Results

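Granulocyte-monocyte progenitors (GMP) and megakaryocyte-erythroid progenitors (MEP) of mouse bone marrow were compared directly, gene by gene, on single-color Agilent whole mouse genome arrays. The samples were chosen by their labelled cell type, which gave 3 GMP and 3 MEP arrays, 6 of the 17 arrays of the series. Both populations came from the marrow of female C57Bl/6 mice aged 6 to 8 weeks, with no genotype or treatment named that would set them apart, and each sample was a pool of 10 to 20 mice. Marrow was depleted of cells bearing lineage antigens (B220, CD3, GR-1 and Ter119), enriched for c-kit, and sorted by flow cytometry in the same sort. GMP were lineage-negative, c-kit+, Sca1-, CD34+ and FcRγ+, while MEP were lineage-negative, c-kit+, Sca1-, CD34- and FcRγ-, so the gates differed in CD34 and the Fcγ receptors. A sorted population is a mixture, and in such bulk RNA fewer cells of a type and less RNA per cell cannot be told apart. Array values are log2 of the quantile-normalized intensity of 1 probe per gene. Values on single arrays are given in a fixed order, the array without a replicate number, then replicate 1, then replicate 2. All differences are GMP minus MEP on that log2 scale with their standard error (SE), so a negative difference is a higher level in MEP. A gene name is called here when the adjusted p of limma (Benjamini-Hochberg over all non-control probes, two-sided) is under 0.05. These p-values measure the spread between pooled samples, and the small number of arrays limits the precision. Where the replicate number is named as a block, only the 6 GMP and MEP arrays were fitted.

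GMP give rise to neutrophils, monocytes and macrophages, and MEP to erythrocytes and the megakaryocytes that shed platelets. In the classical scheme both descend from the common myeloid progenitor (CMP). The split is known as a contest between transcription factors. GATA-1 with its partner FOG-1 drives the erythroid and megakaryocytic programs, PU.1 and C/EBPα drive the myeloid program, and GATA-1 and PU.1 bind and restrain each other. Downstream of these factors stand lineage-specific cytokine receptors, above all the erythropoietin receptor on one side and the receptors for G-CSF, GM-CSF and M-CSF on the other.

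The labels were checked against defining markers. All 8 GMP markers (Mpo, Elane, Prtn3, Ctsg, Cebpa, Csf3r, Fcgr3 and Cd34) were higher in GMP. Of 7 MEP markers, Gata1, Klf1, Epor, Gfi1b and Zfpm1 were higher in MEP, but the other 2, among them the megakaryocytic marker Itga2b, were higher in GMP. On an array, 57.0%, 50% and 53.0% of spots were well above background in GMP and 50%, 48.2% and 49.3% in MEP. Correlations over all probes ran from 0.977 to 0.984 within GMP, from 0.968 to 0.983 within MEP and from 0.929 to 0.951 between the populations, so the arrays grouped by their label. Replicates 1 and 2 of both populations were scanned together (run 1, on 2 slides with 1 GMP and 1 MEP array each). The arrays without a number belong to run 2, where GMP and MEP lay on different slides scanned on different days, so that slide and population cannot be told apart within run 2.

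Of 28090 gene names, 2885 (10.3%) were higher in GMP and 2321 (8.26%) were higher in MEP. Among the 41174 probes, 3938 (9.56%) were higher in GMP and 3214 (7.81%) higher in MEP. The larger number on the GMP side depended on the setting. With the scanning run as a block 3683 gene names were higher in GMP and 3793 in MEP, in run 1 alone 3481 and 3361, and with each array scaled to its 75th percentile 2521 and 2398. Among the 2885 and 2321, 560 gene names were higher in GMP and 324 in MEP by 3 or more. At 5 or more the numbers were 37 and 108, at 6 or more 7 and 56, and at 7 or more 0 and 20. The median difference was 1.80 among gene names higher in GMP and -1.23 among those higher in MEP, and it was -0.07 over all gene names. Of the called gene names, 668 higher in GMP were well above background on no MEP array, and 355 higher in MEP were well above background on no GMP array, so the size of their difference is only bounded. Nearly every call came without overlap between the populations, 2860 of the 2885 higher in GMP and 2304 of the 2321 higher in MEP. Lack of overlap in a called gene therefore adds little to its call. The plot of difference against level shows both tails.

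**Figure D1:**
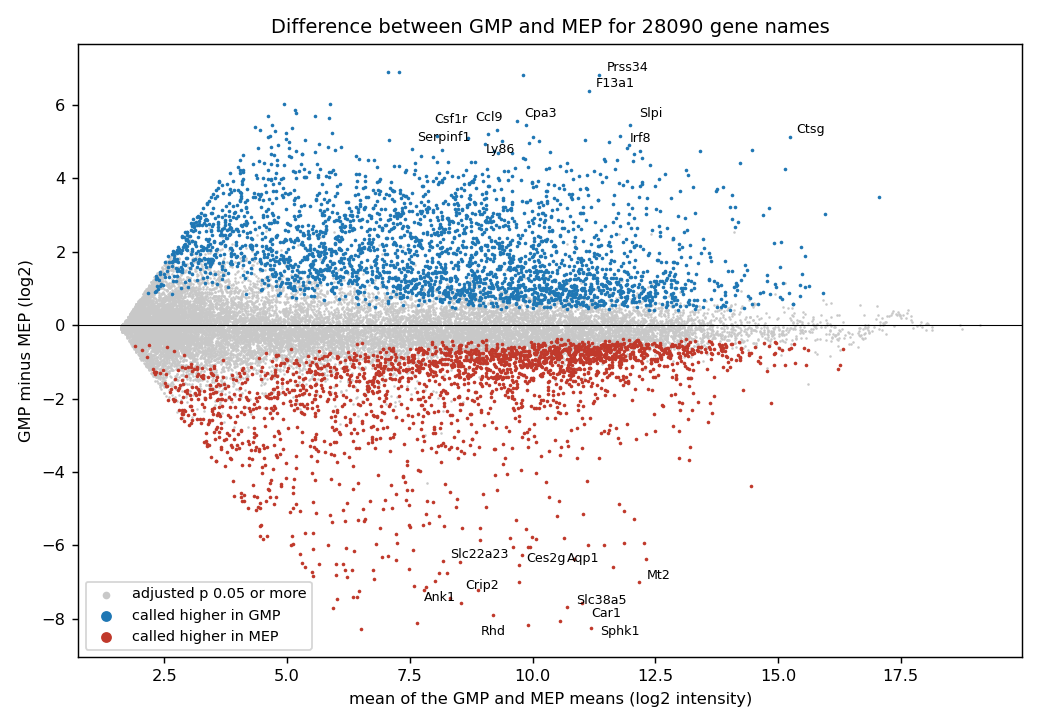
GMP minus MEP (log2, vertical axis) against the mean of both populations' means (log2 intensity, horizontal axis), 1 point per gene name, with the 2885 gene names called higher in GMP and the 2321 called higher in MEP in color. The lower tail, higher in MEP, reaches further from 0 than the upper tail, and it holds Sphk1, Rhd and Car1.

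The 10 widest measured differences on each side were taken among called RefSeq symbols well above background on all 6 arrays. Symbols with overlap between the populations were left out beforehand. On the MEP side, Sphk1, which makes sphingosine 1-phosphate, was at 8.02, 6.81 and 6.38 in GMP and 15.40, 15.33 and 15.21 in MEP, a difference of -8.24 ± 0.63 (adjusted p = 8.98e-07). Rhd, which carries the Rhesus D antigen of the red cell membrane, was at 7.55, 4.99 and 4.95 in GMP and 14.65, 13.73 and 13.58 in MEP (-8.16 ± 0.87, adjusted p = 1.45e-05). In both genes the GMP array without a number stood above the other GMP arrays, yet far below every MEP array. The next were the amino acid transporter Slc38a5 (-7.69), carbonic anhydrase 1, Car1 (-7.57), the membrane skeleton adaptor ankyrin 1, Ank1 (-7.21), the metal-binding protein Mt2 (-7.01), the LIM domain protein Crip2 (-6.99), the water channel Aqp1 (-6.59), the carboxylesterase Ces2g (-6.54) and the solute carrier Slc22a23 (-6.44). The α-globin chaperone Ahsp (-8.06), which the array design names Eraf and which was not matched to a RefSeq symbol, lay between Rhd and Slc38a5. The highest adjusted p among the 10 was that of Rhd.

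On the GMP side, Prss34, a serine protease of basophils and mast cells, was at 14.98, 14.38 and 14.96 in GMP and 6.11, 8.80 and 8.93 in MEP, a difference of 6.82 ± 0.81 (adjusted p = 3.74e-05). F13a1, the A subunit of coagulation factor XIII made by monocytes and platelets, was at 14.55, 14.18 and 14.29 in GMP and 8.13, 7.41 and 8.34 in MEP (6.38 ± 0.30, adjusted p = 2.85e-08). The MEP array without a number was the lowest of the 6 for Prss34, by more than 2 units below the other MEP arrays, whereas the 3 MEP arrays lay within 1 unit of each other for F13a1. They were followed by the mast cell carboxypeptidase Cpa3 (5.57), the protease inhibitor Slpi (5.46), the chemokine Ccl9 (5.46), Serpinf1 (5.31), the M-CSF receptor Csf1r (5.20), the transcription factor Irf8 (5.15), the neutrophil protease cathepsin G, Ctsg (5.13) and Ly86 (5.12), the partner of the Toll-like protein Cd180.

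Where every array of one population had a gene well above background and no probe of that gene was so on any array of the other, only a lower bound on the fold was taken, with the mean of the brighter population set against the higher of the dim probe's own signal and the lowest signal well above background on each array. On the MEP side the largest bounds were those of Paqr9, at least 84.6-fold higher (adjusted p = 1.49e-06), Sh3tc2, at least 65.8-fold, the nonmuscle myosin heavy chain Myh10, at least 60.2-fold, the sulfate transporter Slc26a1, at least 57.2-fold, and the disulfide isomerase Pdia2, at least 47.1-fold. Where only the brightest probe was dim in the other population, the bound is given for that probe. Where 1 or 2 arrays of the lower population had the gene well above background, the fitted difference is given, and it rests in part on values at background. In the lower population 2 arrays were so for Sfpi1, Csf3r, Il6ra, Il6st, Il18r1, Tfec, Fcgr4, Cd14, Mcpt8, Fcer1a, Hfe, Steap3, Alas2, Slc4a1, Ermap, Cldn13, Notch1 and Ccr9. Paqr9 stood at 10.78, 10.63 and 10.53 on the MEP arrays. On the GMP side they were smaller. Csf1, which encodes M-CSF, the ligand of Csf1r, was at least 15.8-fold higher in GMP (adjusted p = 1.07e-07). The Wnt pathway enhancer Rspo1 was at least 15.6-fold higher, Sowahc at least 14.2-fold, Spsb4 at least 13-fold and the calcium-binding protein Kcnip3 at least 12.7-fold.

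Gene lists of lineage and pathway were then counted, and the plot of called members by list shows how far each departed from the shares of all gene names.

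**Figure D2:**
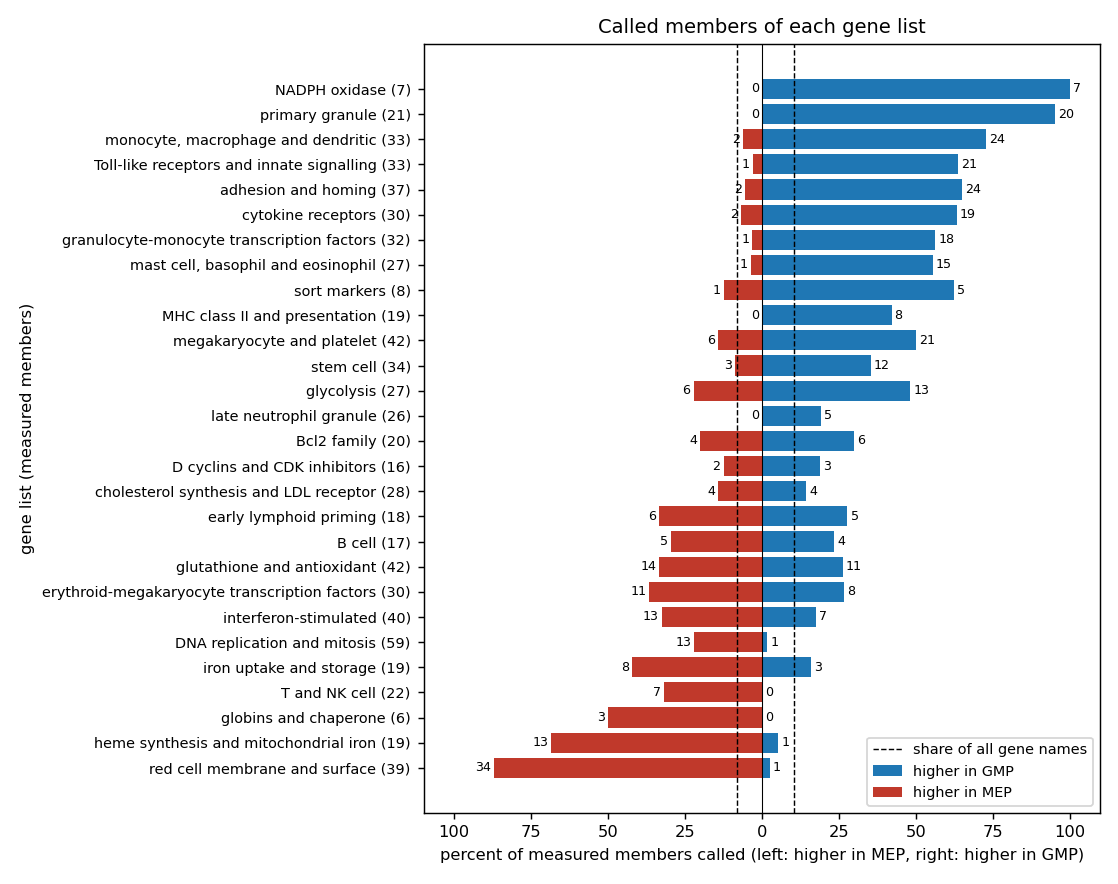
Percent of the measured members of each gene list called higher in GMP (right of 0) or higher in MEP (left of 0), with dashed lines at the shares over all gene names, 10.3% and 8.26%. The lists of primary granule and NADPH oxidase genes lie mostly on the GMP side, the list of red cell membrane genes mostly on the MEP side, and the megakaryocyte list has more members on the GMP side (21 of 42) than on the MEP side (6).

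Transcripts of the sort markers were read first. Cd34 (probe on chromosome 1, 196787392 to 196787451 of mm9) was at 14.53, 14.09 and 14.24 in GMP and 10.93, 8.74 and 9.74 in MEP, a difference of 4.49 ± 0.45 (adjusted p = 8.41e-06). Of the Fcγ receptor genes, Fcgr3 was at 13.43, 13.60 and 13.79 in GMP and 6.51, 9.34 and 9.79 in MEP (5.06 ± 0.74, adjusted p = 0.00023). Fcgr2b differed by 4.27 ± 0.41 and Fcgr4 by 2.08 ± 0.51 (adjusted p = 5.37e-06 and 0.0102). Cd34, Fcgr3, Fcgr2b and Fcgr4 did not overlap between the populations, as was so for nearly all called genes. MEP replicates 1 and 2 held more Fcgr3 and Fcgr2b transcript than the MEP array without a number. Kit, shared by both gates, was at 10.46, 10.79 and 10.47 in GMP and 11.11, 10.92 and 10.97 in MEP and was not called (-0.43 ± 0.24, adjusted p = 0.296). Ly6a, which encodes Sca-1, against which both gates were set, was 16.2-fold higher in GMP, at 10.24, 8.95 and 9.92 in GMP and 5.74, 5.10 and 6.22 in MEP (4.02 ± 0.52, adjusted p = 7.59e-05). The sort used surface protein and these are mRNA levels. Of the lymphoid receptor genes, Flt3 was not called (0.54 ± 0.45, adjusted p = 0.556), while Il7r, the interleukin 7 receptor, was well above background on every MEP array and on no GMP array, at least 5.39-fold higher in MEP (adjusted p = 8.45e-05).

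Of 32 measured transcription factors of the granulocyte-monocyte program, 18 (56.3%) were higher in GMP and 1 was higher in MEP. Cebpa, which encodes C/EBPα (probe on chromosome 7, 35906517 to 35906576 of mm9), was at 11.22, 11.64 and 11.89 in GMP and 5.71, 7.07 and 7.70 in MEP, a difference of 4.76 ± 0.45 (adjusted p = 5.02e-06). Sfpi1, which encodes PU.1, was at 7.67, 7.44 and 7.93 in GMP and 3.38, 5.27 and 5.41 in MEP (2.99 ± 0.55, adjusted p = 0.00135). For both factors MEP replicates 1 and 2 lay more than 1 unit above the MEP array without a number, and every GMP array lay above every MEP array. Irf8, needed for monocytes and dendritic cells, was at 14.13, 14.31 and 14.66 in GMP and 9.94, 8.62 and 9.10 in MEP (5.15 ± 0.43, adjusted p = 1.93e-06). Gfi1, a repressor needed for neutrophils, was at 11.95, 11.78 and 11.48 in GMP and 6.57, 8.09 and 8.72 in MEP (3.94 ± 0.42, adjusted p = 1.32e-05). Klf4, a factor of monocytes, was at 12.73, 12.41 and 12.48 in GMP and 9.15, 8.99 and 8.98 in MEP (3.50 ± 0.14, adjusted p = 1.66e-08).

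The C/EBP genes Cebpb and Cebpd were also higher in GMP, by 2.46 ± 0.33 and 2.82 ± 0.36, while the ubiquitous Cebpg was at 8.53, 8.44 and 8.71 in GMP and 8.67, 8.33 and 8.33 in MEP and was not called (adjusted p = 0.888). The macrophage factor Tfec differed by 5.15 ± 0.54, Irf5 by 3.56 ± 0.41, the C/EBPα regulator Trib1 by 3.28 ± 0.45, Nfil3 by 2.79 ± 0.21, Stat3 by 1.98 ± 0.21, Etv6 by 1.65 ± 0.18, Runx1 by 1.29 ± 0.25 and Zeb2 by 1.27 ± 0.26, all higher in GMP (adjusted p from 8.73e-07 to 0.00281). Nab2 was well above background on 2 GMP arrays and no MEP array, and was at least 1.57-fold higher in GMP (adjusted p = 0.00806). Bcl6 (1.43 ± 0.42, adjusted p = 0.0303) was not called without the GMP array that has no number, GMP replicate 1, MEP replicate 1 or MEP replicate 2, each left out alone (adjusted p up to 0.113). Of the early response factors Jun was higher in GMP (0.86 ± 0.27, adjusted p = 0.0448, and 0.0662 with the replicate number as a block), but was not called without either array that has no number, GMP replicate 1, MEP replicate 1 or MEP replicate 2, while Egr1 (-0.48 ± 0.35), Egr2 (-0.87 ± 0.36), Junb (-0.60 ± 0.23), Atf3 (-0.94 ± 0.56) and Fos (1.32 ± 0.50) were not called, with adjusted p from 0.0944 to 0.471. Fos and Junb were called without the MEP array that has no number (adjusted p = 0.0214 and 0.0163). Both were also called with the scanning run as a block (0.0230 and 0.0201) or the slide as a random block (0.0487 and 0.0309). The other Junb probe was called higher in MEP. The 1 member higher in MEP was Nfe2l2, the NRF2 factor of antioxidant genes (-0.88 ± 0.26, adjusted p = 0.0327), which was not called without GMP replicate 1, GMP replicate 2 or the MEP array without a number (adjusted p up to 0.136).

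The 30 factors of the erythroid and megakaryocytic program were divided, with 11 (36.7%) higher in MEP and 8 (26.7%) higher in GMP. Over all gene names the shares were 8.26% and 10.3%. The core erythroid factors were higher in MEP. Gata1 (probe on chromosome X, 7536849 to 7536908 of mm9) was at 8.08, 7.98 and 8.11 in GMP and 11.72, 12.30 and 12.23 in MEP, a difference of -4.03 ± 0.40 (adjusted p = 7.23e-06). Klf1, the erythroid Krüppel-like factor that activates the adult β-globin gene, was at 7.17, 6.26 and 6.55 in GMP and 13.04, 12.86 and 12.83 in MEP (-6.25 ± 0.54, adjusted p = 2.34e-06). Zfpm1, which encodes FOG-1, was at 11.11, 11.76 and 11.18 in GMP and 14.83, 15.12 and 15.10 in MEP (-3.66 ± 0.23, adjusted p = 2.22e-07). Within each population these 3 genes varied by at most 1 unit, and the populations did not overlap. Gfi1b, the repressor that stands in erythroid cells where Gfi1 stands in neutrophils, was at 9.64, 9.27 and 9.02 in GMP and 14.52, 13.95 and 14.11 in MEP (-4.88 ± 0.22, adjusted p = 2.36e-08). The pair of Gfi1 repressors was thus split, 1 on each side.

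Other partners of GATA-1 differed by less. Tal1 differed by -2.80 ± 0.19 and the bridging factor Ldb1 by -1.44 ± 0.32 (adjusted p = 3.35e-07 and 0.00522), while Lmo2 was not called (-0.81 ± 0.26, adjusted p = 0.0514), except without the MEP array that has no number (0.0192) or with another scaling or block. Sox6, a repressor of embryonic globin, differed by -2.95 ± 0.42, Bcl11a, a repressor of fetal-type globin, by -1.91 ± 0.16, Klf3 by -1.98 ± 0.28, Hmgb3 by -1.83 ± 0.41 and E2f2 by -0.91 ± 0.21. Other factors of the list were higher in GMP. Fli1, a driver of megakaryocyte genes, was at 11.90, 11.59 and 11.28 in GMP and 8.99, 8.22 and 8.87 in MEP (2.90 ± 0.30, adjusted p = 9.82e-06). Lyl1 differed by 1.37 ± 0.15, Lmo4 by 2.43 ± 0.21, Runx1 by 1.29 ± 0.25, Nfe2, needed for platelet release, by 1.01 ± 0.25, and Gata2, the GATA factor of stem and mast cells, by 0.96 ± 0.15 (adjusted p = 0.000514). The brightest Rbpms probe, well above background on no MEP array, was at least 3.6-fold higher in GMP. With each array scaled to its 75th percentile, which moved the median of all gene names to -0.44, Nfe2 was no longer called.

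**Figure D3:**
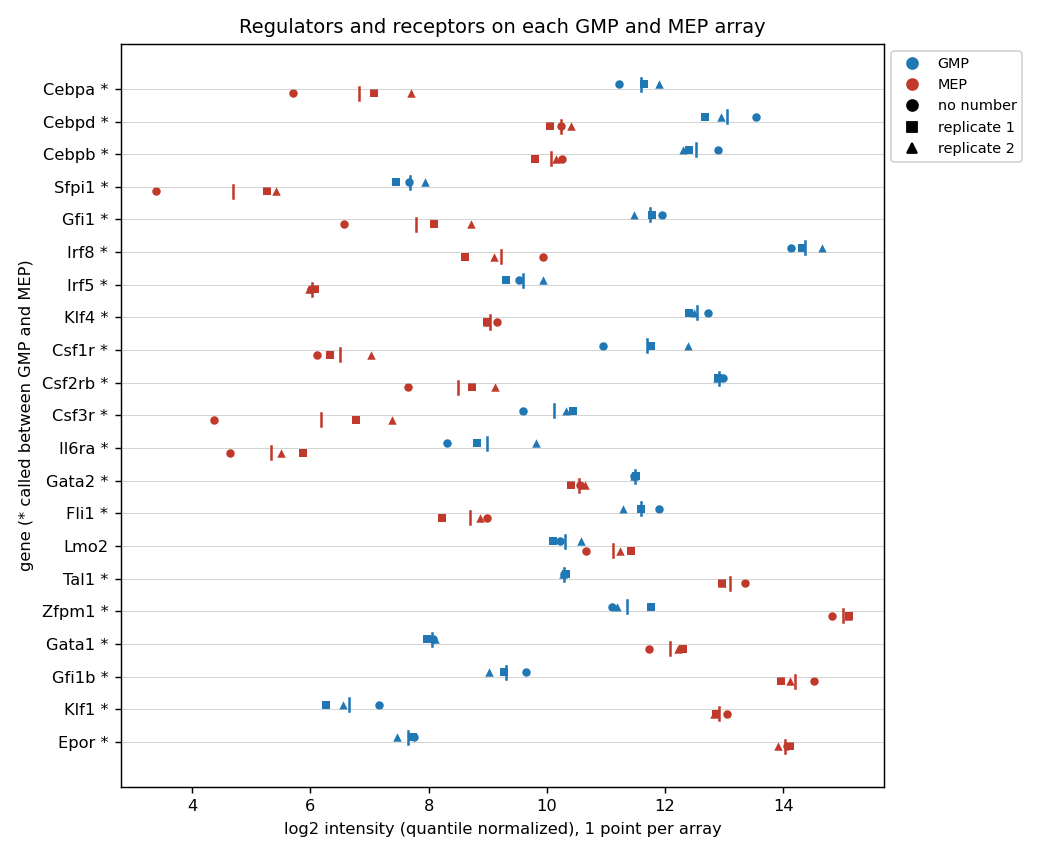
Quantile-normalized log2 intensity (horizontal axis) of regulators and cytokine receptors (vertical axis), 1 point per array, with GMP and MEP in different colors, the replicate shown by the marker, a vertical tick at each mean and an asterisk at genes that were called. The points of Gata1, Klf1, Zfpm1, Gfi1b and Epor lie to the right in MEP, and those of Cebpa, Irf8, Gfi1 and Csf1r to the right in GMP, with no overlap for these genes.

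Of 30 cytokine receptor genes, 19 (63.3%) were higher in GMP and 2 were higher in MEP. The erythropoietin receptor, Epor (probe on chromosome 9, 21763422 to 21763481 of mm9), was at 7.75, 7.73 and 7.46 in GMP and 14.07, 14.11 and 13.91 in MEP, a difference of -6.38 ± 0.31 or 83.3-fold (adjusted p = 2.85e-08). Every MEP array lay far above every GMP array. The other receptor gene higher in MEP was Il18r1 (-3.19 ± 0.58, adjusted p = 0.00126). On the GMP side, the M-CSF receptor Csf1r was at 10.95, 11.76 and 12.38 in GMP and 6.12, 6.33 and 7.03 in MEP (5.20 ± 0.49, adjusted p = 4.98e-06), the G-CSF receptor Csf3r at 9.59, 10.45 and 10.33 in GMP and 4.38, 6.77 and 7.37 in MEP (3.95 ± 0.58, adjusted p = 0.000251), and the GM-CSF receptor α chain Csf2ra at 13.67, 13.96 and 14.12 in GMP and 10.49, 11.50 and 11.67 in MEP (2.69 ± 0.31, adjusted p = 3.23e-05). The G-CSF and GM-CSF receptor transcripts were lower by at least 1 unit on the MEP array without a number than on MEP replicates 1 and 2. The shared β chains Csf2rb (4.41 ± 0.32) and Csf2rb2 (3.88 ± 0.34) have near-identical sequences, so their probes may read both. The interleukin 3 receptor α chain Il3ra differed by 1.60 ± 0.29, Il6ra by 3.65 ± 0.47, its signalling partner Il6st by 4.22 ± 0.25, Il4ra by 2.73 ± 0.30, Il10ra by 3.09 ± 0.38, Il21r by 3.1 ± 0.23 and Il11ra1 by 2.16 ± 0.16, all higher in GMP. The tumor necrosis factor receptors Tnfrsf1a (3.47 ± 0.19) and Tnfrsf1b (3.13 ± 0.38) and the interferon γ receptor chain Ifngr2 (1.62 ± 0.19) were higher in GMP too.

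The genes of GATA-1, PU.1, C/EBPα and Klf1 were called between the populations, and the letters that these proteins are known to bind were searched in the 250 bases upstream of each RefSeq start (GRCm38.p6), on both strands. The letters were AGATAA for GATA-1, then GAGGAA for PU.1, TTGCNNAA for C/EBP and CCACACCC for Krüppel-like factors. The search covered 19237 promoters of 15574 gene names, since a gene can have more than 1 start. AGATAA stood in 8.11% of all promoters, in 7.45% of those of gene names higher in MEP, in 12.6% of those higher in MEP by 3 or more, in 6.39% of those higher in GMP, and in 7.53% of those higher in GMP by 3 or more. GAGGAA stood in 22.6% of all promoters, in 25.8% of those of gene names higher in GMP, in 32.4% of those higher in GMP by 3 or more, in 19.1% of those higher in MEP, and in 17.6% of those higher in MEP by 3 or more. For TTGCNNAA the share was 8.66% of all promoters. It was 9.64% for gene names higher in GMP, 10.9% at 3 or more in GMP, 7.02% higher in MEP and 8.64% at 3 or more in MEP. CCACACCC stood in 3.40% of all promoters, in 3.93% of those higher in GMP and in 3.97% of those higher in MEP. At 3 or more it stood in 3.35% in GMP and in 3.32% in MEP. These shares are descriptions without a test, and letters in a promoter do not make a site. The promoters below were picked because they hold such letters. They are shown 5′ to 3′ in the direction of the gene, ending at the base before the start, with the GATA and PU.1 letters, on either strand, in capitals. Epor, Rhd and Alas2 were higher in MEP. Cpa3, which also holds AGATAA, was higher in GMP, as were Elane, Prtn3 and Csf3r.
Epor (chr9:21963577-21963826, minus strand): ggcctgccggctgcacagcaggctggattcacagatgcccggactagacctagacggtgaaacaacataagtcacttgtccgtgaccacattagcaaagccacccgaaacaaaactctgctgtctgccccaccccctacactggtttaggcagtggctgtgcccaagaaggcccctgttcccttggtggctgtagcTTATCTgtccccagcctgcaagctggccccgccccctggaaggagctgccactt
Rhd (chr4:134864286-134864535, plus strand): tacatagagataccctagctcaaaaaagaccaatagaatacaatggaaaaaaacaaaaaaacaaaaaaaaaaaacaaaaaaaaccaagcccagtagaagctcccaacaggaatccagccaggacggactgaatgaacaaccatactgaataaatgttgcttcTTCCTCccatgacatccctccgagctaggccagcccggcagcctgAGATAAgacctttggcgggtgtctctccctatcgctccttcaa
Alas2 (chrX:150547167-150547416, plus strand): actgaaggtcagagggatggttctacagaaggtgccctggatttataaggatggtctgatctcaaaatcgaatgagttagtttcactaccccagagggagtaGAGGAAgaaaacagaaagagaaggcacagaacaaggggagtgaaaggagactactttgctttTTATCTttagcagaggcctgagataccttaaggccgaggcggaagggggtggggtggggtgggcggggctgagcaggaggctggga
Cpa3 (chr3:20242182-20242431, minus strand): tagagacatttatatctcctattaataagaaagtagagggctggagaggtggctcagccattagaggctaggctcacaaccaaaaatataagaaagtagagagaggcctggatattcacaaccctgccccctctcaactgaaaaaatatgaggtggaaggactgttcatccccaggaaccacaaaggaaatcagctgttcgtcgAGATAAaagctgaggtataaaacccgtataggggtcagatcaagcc
Elane (chr10:79886062-79886311, plus strand): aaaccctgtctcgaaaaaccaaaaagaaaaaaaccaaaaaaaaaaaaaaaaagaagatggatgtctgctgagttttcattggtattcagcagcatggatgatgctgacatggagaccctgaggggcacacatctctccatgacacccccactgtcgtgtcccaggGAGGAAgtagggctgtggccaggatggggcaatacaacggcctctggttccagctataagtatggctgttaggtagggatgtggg
Prtn3 (chr10:79879417-79879666, plus strand): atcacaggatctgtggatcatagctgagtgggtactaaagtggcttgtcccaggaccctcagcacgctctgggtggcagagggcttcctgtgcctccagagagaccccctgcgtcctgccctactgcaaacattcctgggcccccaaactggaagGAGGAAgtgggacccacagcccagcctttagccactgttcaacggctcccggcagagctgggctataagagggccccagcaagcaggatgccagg
Csf3r (chr4:126024409-126024658, plus strand): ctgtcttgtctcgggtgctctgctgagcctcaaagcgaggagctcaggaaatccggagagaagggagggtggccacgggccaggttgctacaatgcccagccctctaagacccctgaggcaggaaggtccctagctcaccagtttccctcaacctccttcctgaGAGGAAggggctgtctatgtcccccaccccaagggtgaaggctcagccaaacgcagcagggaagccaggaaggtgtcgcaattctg

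In these windows the GATA letters began 54 bases before the start of Epor, 43 before that of Rhd, 86 before that of Alas2 and 46 before that of Cpa3. The PU.1 letters began 85 bases before the start of Elane, 95 before that of Prtn3 and 86 before that of Csf3r. Rhd and Alas2 held PU.1 letters as well, 88 and 148 bases before the start, so the letters were not confined to one side.

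Primary granules are formed at the promyelocyte stage. The list named after them also holds other genes, such as Calr, Plac8 and Clec12a. It was written with earlier results of these data known. Of its 21 measured members, 20 (95.2%) were higher in GMP and none was higher in MEP. With the replicate number as a block 16 were higher in GMP. Mpo, myeloperoxidase, was at 18.89, 18.66 and 18.89 in GMP and 13.63, 15.93 and 16.42 in MEP, a difference of 3.49 ± 0.67 (adjusted p = 0.00207, and 0.0542 with the replicate number as a block). Neutrophil elastase, Elane, was at 15.11, 14.18 and 14.21 in GMP and 8.37, 10.47 and 11.01 in MEP (4.55 ± 0.90, adjusted p = 0.00239), and proteinase 3, Prtn3, at 14.37, 14.25 and 14.41 in GMP and 7.67, 10.23 and 10.67 in MEP (4.82 ± 0.69, adjusted p = 0.000196). In all of these the GMP arrays lay within 1 unit of each other, while MEP replicates 1 and 2 lay above the MEP array without a number by more than 2 units. Ctsg was at 18.48, 17.14 and 17.78 in GMP and 10.84, 13.25 and 13.93 in MEP and Ms4a3, a membrane protein of GMP, at 16.35, 15.47 and 15.51 in GMP and 9.32, 11.64 and 12.14 in MEP, with the same order of the MEP arrays. Within run 1 the median difference of the list was 2.80 and within run 2 it was 5.10, and 18 of 21 members had the wider difference toward GMP in run 2. The one member not called was Bpi, which was well above background on none of the 6 arrays.

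All 7 measured subunits of the NADPH oxidase, which makes the superoxide of phagocytes, were higher in GMP. The cytosolic subunits Ncf4 (3.16 ± 0.42) and Ncf1 (2.86 ± 0.55) and the GTPase Rac2 (2.21 ± 0.20) had the larger differences, followed by the membrane subunits Cybb (2.12 ± 0.51) and Cyba (1.73 ± 0.30) and by Rac1 (0.93 ± 0.26). With the replicate number as a block the adjusted p of Cybb was 0.0627. Rac1 was not called without the MEP array that has no number, GMP replicate 1, MEP replicate 1 or GMP replicate 2 (adjusted p up to 0.115) or with 75th percentile scaling. Of 33 Toll-like receptors and innate signalling genes, 21 (63.6%) were higher in GMP and 1 higher in MEP. Tlr2 was at 10.61, 10.27 and 10.30 in GMP and 6.38, 6.23 and 6.4 in MEP (4.06 ± 0.25, adjusted p = 1.95e-07). Tlr4, the receptor for lipopolysaccharide, and Tlr1 were well above background on every GMP array and no MEP array, and Tlr1 was at least 6.3-fold higher. The lipopolysaccharide co-receptor Cd14 (4.17 ± 0.39), the β-glucan receptor Clec7a (4.93 ± 0.30), caspase 1, Casp1 (3.76 ± 0.21), and the intracellular sensor Nod1 (3.35 ± 0.20) were on the same side. Nod2 was called higher in GMP too (adjusted p = 0.000374), but it was well above background on 2 GMP arrays and no MEP array. The shared adaptors Myd88, at 10.88, 11.16 and 11.50 in GMP and 10.44, 11.05 and 11.14 in MEP (0.30 ± 0.26, adjusted p = 0.564), and Traf6, at 7.13, 7.11 and 7.13 in GMP and 7.72, 7.25 and 7.31 in MEP (-0.31 ± 0.23, adjusted p = 0.497), were not called. The kinase Irak2 was the member higher in MEP (-0.91 ± 0.21, adjusted p = 0.00612).

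Of 33 genes of monocytes, macrophages and dendritic cells, 24 (72.7%) were higher in GMP and 2 higher in MEP. The summed level of the list was 17.14, 16.86 and 17.27 in GMP and 13.02, 13.30 and 13.55 in MEP. The chemokine receptor Ccr2, by which monocytes leave the marrow, was at 10.42, 9.98 and 10.46 in GMP and 6.30, 5.40 and 5.82 in MEP (4.45 ± 0.34, adjusted p = 8.13e-07). Cx3cr1 was at 7.02, 7.83 and 8.61 in GMP and 1.78, 4.71 and 4.75 in MEP. This probe was well above background on no MEP array and was at least 8.42-fold higher in GMP (adjusted p = 0.00109). GMP thus held monocytic transcripts next to granulocytic ones, and the MEP arrays differed from each other by less in this list than in the granule lists. Emr1, an adhesion receptor of macrophages, differed by 3.38 ± 0.40, Ly6c1 by 4.92 ± 0.63, Ms4a6c by 5.09 ± 0.35, the adaptor Tyrobp by 3.91 ± 0.34, cathepsin S, Ctss, by 2.98 ± 0.35, and the macrophage marker Cd68 by 2.74 ± 0.27. Members not called included Itgax (-0.28 ± 0.43), Marco (-0.48 ± 0.37) and Siglech (-0.85 ± 0.79). The 2 members higher in MEP were the fatty acid translocase Cd36, at least 5.13-fold higher (adjusted p = 2.76e-05), and the lysosomal reductase Ifi30 (-0.74 ± 0.23, adjusted p = 0.04), which was not called without either array that has no number, GMP replicate 1, MEP replicate 1 or MEP replicate 2 (adjusted p up to 0.153) or with the replicate number as a block (0.0799).

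Genes of mast cells, basophils and eosinophils were also on the GMP side, 15 of 27 (55.6%), with 1 higher in MEP. Besides Prss34 and Cpa3, the basophil protease Mcpt8 was at 13.54, 12.79 and 13.35 in GMP and 4.82, 6.98 and 7.40 in MEP (6.83 ± 0.59, adjusted p = 2.48e-06). The α and β subunit genes of the high-affinity IgE receptor were higher in GMP, Fcer1a by 4.62 ± 0.53 (adjusted p = 2.94e-05) and Ms4a2 by at least 9-fold (adjusted p = 3.76e-06). For the basophil proteases Mcpt8 and Prss34 the MEP array without a number was the lowest, as it was for the neutrophil proteases. The surface marker Cd200r3 was at least 5.24-fold and the mast cell chymase Cma1 at least 4.26-fold higher in GMP. Histidine decarboxylase, Hdc, differed by 4.74 ± 0.66, eosinophil peroxidase, Epx, by 3.65 ± 1.01, and the eosinophil granule proteins Prg2 and Prg3 by 3.04 ± 0.85 and 3.31 ± 0.87. Epx was not called without either array that has no number or GMP replicate 1, Prg3 without either array that has no number or GMP replicate 1, and Prg2 without either array that has no number, with adjusted p up to 0.095, 0.0763 and 0.104. With the replicate number as a block their adjusted p were 0.129, 0.159 and 0.215. The tryptases of connective tissue mast cells were at background, with Tpsab1 well above it on none of the 6 arrays and Tpsb2 on 1. The eosinophil ribonucleases Ear1, Ear6 and Ear10, whose sequences are near-identical, had differences of 2.31, 2.49 and 2.22 and were not called, but all 3 were called without GMP replicate 2 (adjusted p = 0.0249, 0.0275 and 0.0127 at the lowest), and Ear6 and Ear10 without MEP replicate 2 too. Il1rl1, the interleukin 33 receptor, was the member higher in MEP, at 9.26, 8.70 and 8.66 in GMP and 11.57, 10.86 and 10.78 in MEP (-2.20 ± 0.28, adjusted p = 7.58e-05), and all 3 of its probes were called in that direction. Without the MEP array that has no number, 2 members were higher in MEP. The summed level of the list was 19.19, 18.15 and 17.56 in GMP and 13.90, 16.05 and 16.29 in MEP, so MEP replicates 1 and 2 were above the MEP array without a number by more than 2 units.

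The late neutrophil list holds genes of the secondary and tertiary granules, made after the GMP stage. It also holds other neutrophil genes, such as S100a8, S100a9, Padi4, Cxcr2 and Anxa1. Of 26 measured, 5 (19.2%) were higher in GMP and none was higher in MEP, against 10.3% and 8.26% of all gene names. The lactoferrin gene Ltf was at 11.22, 10.32 and 9.47 in GMP and 11.33, 11.80 and 12.21 in MEP (-1.44 ± 0.62, adjusted p = 0.157), the cathelicidin gene Camp at 13.26, 11.31 and 10.50 in GMP and 12.08, 13.15 and 13.43 in MEP (-1.19 ± 0.80, adjusted p = 0.418), and S100a9, a subunit of calprotectin, at 17.54, 15.85 and 15.19 in GMP and 16.14, 16.93 and 17.03 in MEP (-0.50 ± 0.64, adjusted p = 0.751). The highest GMP value of each was on the array without a number, and the highest MEP values were on replicates 1 and 2. Ltf was lower in GMP in both scanning runs, but for other members the sign differed between them. For Camp the difference was -2.38 in run 1 and 1.18 in run 2, for Ngp -2.61 in run 1 and 0.78 in run 2, for S100a9 -1.46 in run 1 and 1.41 in run 2 and for S100a8 -0.95 in run 1 and 1.87 in run 2. Over the list the median was -0.93 in run 1 and 1.0 in run 2, and 17 of 26 members had opposite signs in the runs, against 8182 of all 28090 gene names.

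From run 1 alone, where 12% of all gene names were called higher in MEP, 11 late neutrophil genes were called higher in MEP. The 5 called higher in GMP in the full fit were the annexin Anxa1 (2.92 ± 0.33), the chemokine receptor Cxcr2 (2.01 ± 0.51), the peptidoglycan receptor Pglyrp1 (2.04 ± 0.60, adjusted p = 0.0298, and 0.156 with the replicate number as a block), the collagenase Mmp8 (1.90 ± 0.54, adjusted p = 0.0271) and the citrullinating enzyme Padi4 (1.69 ± 0.30). Mmp8 and Cxcr2 were well above background on 1 MEP array each. Mmp8 was not called without the GMP array that has no number, MEP replicate 1, GMP replicate 2 or MEP replicate 2 (adjusted p up to 0.117), Pglyrp1 was not called without either array that has no number, GMP replicate 1 or MEP replicate 1 (up to 0.129), and Cxcr2 was not called without the MEP array that has no number (0.0626). Without either array that has no number, or without MEP replicate 1, that number was 3. The summed level of the list was 18.03, 16.63 and 16.09 in GMP and 16.56, 17.48 and 17.63 in MEP. These levels lay beside primary granule sums of 20.81, 20.03 and 20.25 in GMP and 16.15, 17.23 and 17.63 in MEP. GR-1, one of the lineage antigens depleted before the sort, is a marker of mature neutrophils. Whether mature neutrophils or their RNA had a part in the granule results was not tested.

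**Figure D4:**
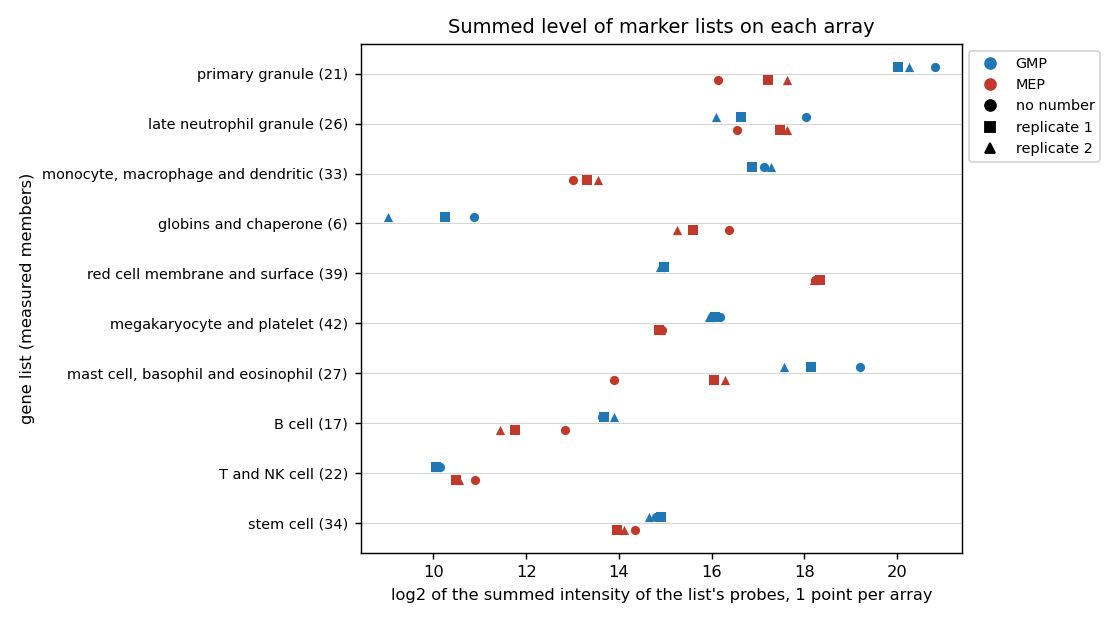
Log2 of the summed intensity of each marker list (horizontal axis), 1 point per array, with GMP and MEP in different colors and the replicate shown by the marker. The red cell and monocyte sums are well apart between the populations, while the late neutrophil sums overlap, from 16.09 to 18.03 in GMP and from 16.56 to 17.63 in MEP.

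**Figure D5:**
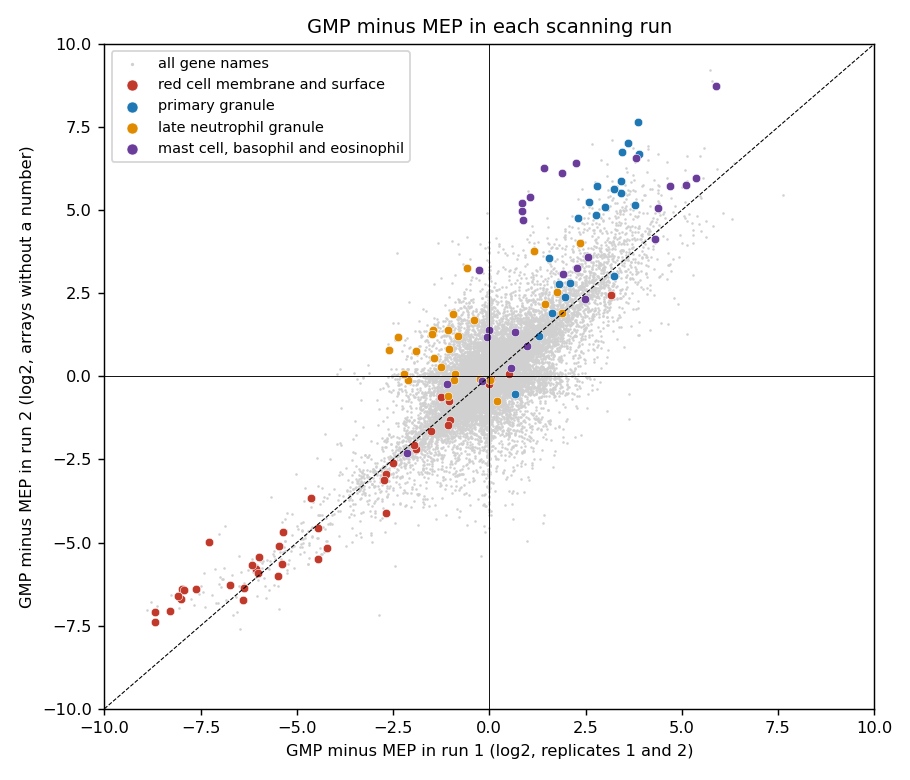
GMP minus MEP within run 1 (replicates 1 and 2, log2, horizontal axis) against the same difference within run 2 (arrays without a number, log2, vertical axis), 1 point per gene name, with members of 4 lists in color and a dashed line where the runs are equal. Most red cell genes lie at the lower left and most primary granule genes at the upper right, whereas 17 of the 26 late neutrophil genes lie in quadrants of opposite sign.

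Of 39 genes of the red cell membrane and surface, 34 (87.2%) were higher in MEP and 1 was higher in GMP. The summed level of the list was 14.97, 14.97 and 14.89 in GMP and 18.24, 18.33 and 18.21 in MEP, a spread of 0.08 within GMP and 0.12 within MEP. Beside Rhd, its partner Rhag was at least 45.4-fold higher in MEP (adjusted p = 1.42e-06). The anion exchanger Slc4a1, band 3, was at 6.31, 4.94 and 4.32 in GMP and 10.88, 9.16 and 8.99 in MEP (-4.49 ± 0.74, adjusted p = 0.000612), and the MEP array without a number was the highest of the 6. The spectrins of the membrane skeleton were higher as well, Spna1 at least 25.3-fold and the brightest probe of Spnb1, well above background on no GMP array, at least 47.2-fold, while β-adducin, Add2, well above background on 1 GMP array, differed by -7.43 ± 0.81, and the claudin Cldn13 by -7.58 ± 0.59. Carbonic anhydrase 2, Car2, differed by -6.36 ± 0.45, the erythroblast protein Ermap by -7.89 ± 0.76 and the biliverdin reductase Blvrb by -5.14 ± 0.32. Gypc (-0.93 ± 0.15) and Epb4.1 (-1.12 ± 0.20) were higher in MEP by less, and the mean of the Epb4.1 probes was not called. Tmod3 (0.37 ± 0.23) and Cd47 (-0.01 ± 0.17) were not called, although 2 other probes of Cd47 were called higher in GMP. The member higher in GMP was the glucose transporter Slc2a1, at 9.49, 9.96 and 9.73 in GMP and 7.04, 6.54 and 6.82 in MEP (2.92 ± 0.25, adjusted p = 2.09e-06).

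Of 19 genes of heme synthesis and mitochondrial iron handling, 13 (68.4%) were higher in MEP, and the first step of the pathway was split between its isoenzymes. Alas1, the δ-aminolevulinate synthase of nonerythroid cells, was at 15.22, 15.24 and 15.00 in GMP and 10.87, 11.52 and 11.81 in MEP and was 13.5-fold higher in GMP (3.75 ± 0.32, adjusted p = 2.15e-06). Alas2, the erythroid synthase, was at 5.27, 6.75 and 4.13 in GMP and 9.32, 8.79 and 8.29 in MEP and was higher in MEP (-3.42 ± 0.63, adjusted p = 0.00139). The difference was -4.10 without GMP replicate 1 and -2.79 without GMP replicate 2, and in run 1 alone Alas2 was not called. Neither gene overlapped between the populations. Later enzymes of the pathway were higher in MEP. Alad differed by -2.89 ± 0.27, Uros by -2.15 ± 0.38, Urod by -2.12 ± 0.18, Cpox by -3.61 ± 0.38, Ppox by -1.70 ± 0.19 and ferrochelatase, Fech, by -2.30 ± 0.45 (adjusted p from 1.65e-06 to 0.00217). The mean of the 2 Alad probes was not called. Slc25a38, which imports glycine for the first step, differed by -2.40 ± 0.24, and the porphyrin transporter Abcb6 by -2.20 ± 0.22, whereas the mitochondrial iron importer mitoferrin 1, Slc25a37, was at 11.04, 11.29 and 10.82 in GMP and 11.26, 10.72 and 10.65 in MEP and was not called (adjusted p = 0.721).

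Iron genes were less one-sided, with 8 of 19 (42.1%) higher in MEP and 3 (15.8%) higher in GMP. Over all gene names the shares were 8.26% and 10.3%. The second transferrin receptor Tfr2 was at 10.34, 10.14 and 10.06 in GMP and 13.35, 13.46 and 13.33 in MEP (-3.20 ± 0.18, adjusted p = 8.62e-08). The main transferrin receptor Tfrc differed by -1.69 ± 0.17, the endosomal ferrireductase Steap3 by -2.83 ± 0.40, the iron transporter Slc11a2 by -2.25 ± 0.21 and the iron exporter ferroportin, Slc40a1, by -2.07 ± 0.40. Uptake, reduction, endosomal transport and export were thus all represented on the MEP side. The 3 higher in GMP were the hemochromatosis gene Hfe (4.08 ± 0.45, adjusted p = 2e-05), the phagosomal transporter Slc11a1 (at least 2.21-fold, adjusted p = 0.0347, well above background on no MEP array) and the heme oxygenase Hmox2 (0.89 ± 0.12). Slc11a1 was not called without either array that has no number, GMP replicate 1 or GMP replicate 2 (adjusted p up to 0.141), and its adjusted p was 0.103 with the replicate number as a block.

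The adult globins, the protein chains of hemoglobin, were higher in MEP. Hbb-b1 was at 10, 9.70 and 8.29 in GMP and 15.34, 14.20 and 13.62 in MEP (-5.05 ± 0.55, adjusted p = 1.78e-05) and Hba-a1 at 9.15, 8.26 and 7.01 in GMP and 13.80, 12.85 and 12.17 in MEP (-4.80 ± 0.64, adjusted p = 9.85e-05). In both populations the array without a number was the highest and replicate 2 the lowest, which left the differences of the runs alike, -4.91 in run 1 and -5.34 in run 2 for Hbb-b1. The α-globin chaperone Ahsp was at 7.94, 5.81 and 5.86 in GMP and 14.84, 14.50 and 14.43 in MEP (-8.06 ± 0.84, adjusted p = 1.25e-05). The embryonic globins Hbb-bh1, Hbb-y and Hba-x were not called in the main fit. Hbb-y was called with the replicate number as a block (adjusted p = 0.0177). With the scanning run as a block, 4 globin and chaperone genes were called higher in MEP, against 3 in the main fit. Hbb-bh1 and Hba-x were well above background on none of the 6 arrays. Globin genes have close copies, so a probe may read more than 1 of them. Ter119, which marks maturing red cells, was among the depleted lineage antigens.

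Megakaryocyte and platelet genes were mostly on the side of GMP. Of 42 measured, 21 (50%) were higher in GMP and 6 were higher in MEP, against 10.3% and 8.26% of all gene names. Itga2b, which encodes CD41, was at 10.12, 10.66 and 10.59 in GMP and 6.73, 7.62 and 7.89 in MEP (3.04 ± 0.53, adjusted p = 0.000963). Its partner Itgb3 differed by 2.61 ± 0.28, platelet factor 4, Pf4, was at 12.99, 12.83 and 11.70 in GMP and 9.72, 8.92 and 9.69 in MEP (3.06 ± 0.43, adjusted p = 0.000165), and P-selectin, Selp, was at least 3.29-fold higher. No MEP array reached a GMP array for Itga2b or Pf4. Other members higher in GMP included the thromboxane synthase Tbxas1 (3.56 ± 0.23), the protease inhibitor Serpine2, at least 7.76-fold, the platelet ATP receptor P2rx1, at least 4.76-fold (adjusted p = 0.000483, and 0.05 with the replicate number as a block), the receptor Clec1b (2.53 ± 0.64), Treml1 (2.09 ± 0.37) and Nbeal2 (2.18 ± 0.53), which is needed for α granules. Clec1b, well above background on 1 MEP array, was not called without either array that has no number or MEP replicate 2 (adjusted p up to 0.0669). With the replicate number as a block neither Clec1b nor Treml1 was called (adjusted p = 0.137 and 0.0635). Several of these, F13a1 and Tbxas1 among them, are also made by monocytes. On the MEP side stood Gp5 (-2.44 ± 0.46, adjusted p = 0.00187) and Gp1ba (-1.20 ± 0.36), subunits of the receptor for von Willebrand factor, the thrombin receptor F2r (-1.41 ± 0.41, adjusted p = 0.0285, and 0.11 with the replicate number as a block), the ADP receptor P2ry1 (-1.32 ± 0.30), Pdlim1 (-1.42 ± 0.17) and Prkcq (-0.99 ± 0.23, and an adjusted p of 0.0703 with the block). F2r was not called without either array that has no number, GMP replicate 2 or MEP replicate 2 (adjusted p up to 0.12), and Gp1ba was not called without the MEP array that has no number, GMP replicate 1, MEP replicate 1, GMP replicate 2 or MEP replicate 2 (up to 0.153). The other subunits Gp9 (-0.65 ± 0.34) and Gp1bb (0.61 ± 0.28) and Vwf itself (0.34 ± 0.27) were not called, although with the replicate number as a block Gp9 and Gp1bb were (adjusted p = 0.0377 and 0.0475). The summed level of the list was 16.19, 16.08 and 15.94 in GMP and 14.94, 14.86 and 14.91 in MEP.

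Of 34 genes of stem cells, 12 (35.3%) were higher in GMP and 3 were higher in MEP. Besides Ly6a, those higher in GMP included the endothelial protein C receptor Procr (1.49 ± 0.30, adjusted p = 0.00273, well above background on 1 MEP array), Meis1, Hoxa7 (2.17 ± 0.27), Hoxa9 (0.77 ± 0.17, and an adjusted p of 0.056 with the replicate number as a block) and Hlf (1.34 ± 0.23, adjusted p = 0.000913, and 0.0933 with the block). The stem cell marker Slamf1 was at 1.88, 2.00 and 1.97 in GMP and 4.03, 2.07 and 3.55 in MEP and well above background on none of the 6 arrays. Gata3 was well above background on every MEP array and no GMP array, at least 7.34-fold higher in MEP (adjusted p = 5.23e-06), and Mllt3 was at 8.78, 8.53 and 8.23 in GMP and 12.23, 11.11 and 11.26 in MEP (-3.02 ± 0.30, adjusted p = 8.25e-06). The CDK inhibitor Cdkn1c was the third gene higher in MEP (-1.16 ± 0.28, adjusted p = 0.00964).

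Lymphoid genes were called in both directions. Of 22 genes of T and NK cells, none was higher in GMP and 7 (31.8%) were higher in MEP. Of 17 genes of B cells 4 (23.5%) were higher in GMP and 5 (29.4%) in MEP. Over all gene names the shares were 10.3% and 8.26%. Bcl11b, a factor of T cell commitment, was at 3.00, 1.98 and 2.51 in GMP and 6.78, 6.69 and 6.96 in MEP and was at least 5.92-fold higher in MEP (adjusted p = 2.11e-05). The kinase Lck was at 5.89, 6.13 and 6.20 in GMP and 7.74, 7.49 and 7.55 in MEP (-1.52 ± 0.24, adjusted p = 0.000477). Of the T cell receptor components, Cd3e was at 5.31, 5.39 and 4.96 in GMP and 5.21, 5.20 and 5.05 in MEP and was not called (0.07 ± 0.67, adjusted p = 0.99). Cd3g was not called either (-1.23 ± 0.67, adjusted p = 0.288), but without MEP replicate 2 it was (adjusted p = 0.0291). Cd3d (-1.71 ± 0.63, adjusted p = 0.0857), well above background on no GMP array, was called only with a block or another scaling (adjusted p = 0.02 with the replicate number as a block) or without MEP replicate 1. Summed over the T and NK cell list the level was 10.14, 10.06 and 10.05 in GMP and 10.89, 10.50 and 10.56 in MEP.

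Among B cell genes, the signalling partner of the B cell receptor Cd79b was at 11.91, 11.73 and 11.94 in GMP and 8.92, 8.23 and 8.34 in MEP and was higher in GMP (3.37 ± 0.24, adjusted p = 4.87e-07), while Cd79a was at 4.0, 3.14 and 3.95 in GMP and 4.21, 4.46 and 4.11 in MEP and was not called (adjusted p = 0.493). Cd72 (1.87 ± 0.20) was higher in GMP as well. For the immunoglobulin μ gene, Igh-6, the brightest probe was higher in GMP (2.70 ± 0.30, adjusted p = 2.27e-05), but the mean of its 3 probes was not called. Bank1 (adjusted p = 0.0263) was the remaining gene higher in GMP, but its probe was well above background on none of the 6 arrays and was not called without either array that has no number, MEP replicate 1 or GMP replicate 2 (adjusted p up to 0.0984). On the side of MEP were the adaptor Blnk, at 7.67, 6.75 and 6.67 in GMP and 11.05, 9.55 and 9.18 in MEP (-2.89 ± 0.44, adjusted p = 0.000334), Vpreb3 (-3.49 ± 0.49) and the coactivator Pou2af1 (-3.28 ± 0.51, adjusted p = 0.000386). Vpreb3 and Pou2af1 were well above background on 1 GMP array each. Vpreb1 (-1.44 ± 0.43, adjusted p = 0.0327) was not called without the MEP array that has no number, GMP replicate 1, MEP replicate 1 or GMP replicate 2 (adjusted p up to 0.138), and the number higher in MEP was 3 without the MEP array that has no number or without GMP replicate 1, MEP replicate 1 or GMP replicate 2. The defining B cell factors Pax5 and Ebf1 and the marker Ms4a1 were well above background on none of the 6 arrays. Summed over the B cell list the level was 13.63, 13.68 and 13.89 in GMP and 12.83, 11.76 and 11.44 in MEP.

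Of 18 genes of early lymphoid priming, 5 (27.8%) were higher in GMP and 6 (33.3%) in MEP, against 10.3% and 8.26% of all gene names. Dntt, the terminal transferase, was at 8.49, 8.88 and 7.69 in GMP and 12.91, 10.63 and 10.82 in MEP (-3.1 ± 0.52, adjusted p = 0.000699, and 0.0514 with the replicate number as a block). The MEP array without a number was its highest, by more than 2 units. Il7r, Ccr9 (-1.88 ± 0.28), Ly6d (-1.96 ± 0.60) and the early T cell factor Tcf7, at least 4.96-fold (adjusted p = 0.000324), were also higher in MEP, although Ly6d was not called without the MEP array that has no number, GMP replicate 1, GMP replicate 2 or MEP replicate 2 (adjusted p up to 0.157). Notch1 (3.03 ± 0.30), Cd27 (2.88 ± 0.25), Satb1 (2.13 ± 0.25) and Lsp1 (1.51 ± 0.34) were higher in GMP. B220 and CD3 were among the depleted lineage antigens, and the part of lymphoid cells in these values was not tested.

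Glycolysis was divided by isoenzyme. Of 27 genes, 13 (48.1%) were higher in GMP and 6 in MEP. Among the hexokinases, Hk3 was at 13.51, 14.20 and 14.21 in GMP and 7.44, 10.40 and 10.55 in MEP (4.51 ± 0.65, adjusted p = 0.0002), Hk2 was higher in GMP (2.98 ± 0.21) and Hk1 was higher in MEP (-1.14 ± 0.18). Among the phosphofructokinases the platelet form Pfkp was higher in GMP (2.41 ± 0.29), the muscle form Pfkm was at 9.5, 10.23 and 10.32 in GMP and 12.51, 13.21 and 12.97 in MEP and higher in MEP (-2.88 ± 0.30, adjusted p = 1.08e-05), and the liver form Pfkl was not called (0.09 ± 0.23, adjusted p = 0.914). The last step was divided too, with Pkm2 at 13.87, 13.72 and 13.87 in GMP and 8.65, 9.80 and 10.19 in MEP (4.27 ± 0.39, adjusted p = 3.38e-06) and Pklr, the liver and red cell form, at 4.44, 1.68 and 3.36 in GMP and 8.93, 9.34 and 9.41 in MEP (-6.07 ± 0.63, adjusted p = 1.1e-05), well above background on 1 GMP array. The glucose transporters followed the same division, Slc2a1 higher in GMP and Slc2a3 higher in MEP (-1.52 ± 0.27, adjusted p = 0.000978), although the mean of the 3 Slc2a3 probes was not called. Other enzymes of the pathway were higher in GMP, among them Pgam1, at 15.57, 15.60 and 15.58 in GMP and 11.57, 11.97 and 12.19 in MEP (3.67 ± 0.17, adjusted p = 2.47e-08), Gapdh (1.15 ± 0.27), Pgk1 (1.48 ± 0.27) and Gpi1 (1.88 ± 0.23). With 75th percentile scaling Gapdh was not called. Lactate dehydrogenase B, Ldhb, differed by 3.23 ± 0.21, while Ldha was at 15.90, 15.30 and 15.09 in GMP and 16.04, 15.24 and 15.38 in MEP and was not called.

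The antioxidant genes showed a similar exchange of family members, with 11 of 42 (26.2%) higher in GMP and 14 (33.3%) higher in MEP. Over all gene names the shares were 10.3% and 8.26%. Gstm1 was at 17.12, 16.08 and 16.15 in GMP and 10.99, 12.27 and 12.82 in MEP (4.42 ± 0.47, adjusted p = 1.44e-05) and Gstm5, of the same glutathione transferase class, at 9.12, 8.94 and 9.25 in GMP and 12.70, 12.81 and 12.65 in MEP (-3.62 ± 0.31, adjusted p = 2.02e-06). The microsomal transferases Mgst1 (3.95 ± 0.43) and Mgst2 (3.18 ± 0.34) were higher in GMP and Mgst3 (-1.99 ± 0.19) higher in MEP. Nqo1, a quinone reductase controlled by NRF2, was at 5.33, 5.40 and 5.18 in GMP and 9.51, 9.32 and 9.44 in MEP (-4.12 ± 0.31, adjusted p = 7.36e-07). Peroxiredoxin 2, Prdx2, abundant in red cells, was at 13.85, 13.58 and 13.96 in GMP and 16.25, 15.73 and 15.79 in MEP (-2.13 ± 0.16, adjusted p = 9.08e-07), and Prdx3, Prdx4 and Prdx6 were on the same side, while Prdx5 was higher in GMP (1.72 ± 0.38). In the pentose phosphate pathway, which supplies NADPH, G6pdx (0.84 ± 0.21) and Pgd (1.71 ± 0.25) were higher in GMP, but G6pdx was not called without the GMP array that has no number or MEP replicate 1 (adjusted p up to 0.0597) or with 75th percentile scaling. Cholesterol synthesis genes were near the background shares, with 4 of 28 higher in GMP and 4 higher in MEP, and none of the 28 differed by more than 1.38. The number higher in GMP was 2 without the GMP array that has no number or without MEP replicate 1.

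Genes of DNA replication and mitosis were level or slightly higher in MEP. Of 59 measured, 13 (22%) were higher in MEP and 1 was higher in GMP, and the median difference of the list was -0.34. The number higher in MEP was 22 with the scanning run as a block. All 59 transcripts were well above background on the 6 arrays. Ccne1, which encodes cyclin E1, was at 11.27, 11.56 and 11.79 in GMP and 14.42, 14.52 and 14.33 in MEP (-2.88 ± 0.22, adjusted p = 8.29e-07) the widest difference of the list. The replication licensing factor Cdc6 differed by -1.32 ± 0.16 and the centromere histone Cenpa by -1.37 ± 0.26. Mki67 was at 14.44, 14.22 and 13.85 in GMP and 14.97, 14.45 and 14.29 in MEP (-0.40 ± 0.21, adjusted p = 0.279), and the helicase subunits Mcm2 to Mcm7 and Top2a (0.11 ± 0.40) were not called. Kif23 was the gene higher in GMP (0.99 ± 0.28, adjusted p = 0.0249), and it was not called without the GMP array that has no number, MEP replicate 1 or MEP replicate 2.

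Of 16 D cyclin, CDK and CDK inhibitor genes, 3 (18.8%) were higher in GMP and 2 (12.5%) in MEP. Over all gene names the shares were 10.3% and 8.26%. Ccnd2 was at 12.49, 13.04 and 12.87 in GMP and 11.58, 11.84 and 12.32 in MEP (0.88 ± 0.20, adjusted p = 0.00619, and 0.0538 with the replicate number as a block), Cdk6 at 14.82, 15.09 and 14.48 in GMP and 14.22, 13.80 and 13.97 in MEP (0.80 ± 0.18, adjusted p = 0.00658, and 0.0976 with the block), and Cdkn2d differed by 1.23 ± 0.28. Fitted to the 6 arrays alone, none of the 3 was called. Rb1 (-1.02 ± 0.24) and Cdkn1c were the genes higher in MEP. Ccnd1, Ccnd3 and Cdk4 were not called. Among 20 genes of the Bcl2 family, which set survival, 6 (30%) were higher in GMP and 4 (20%) in MEP. Bcl2 itself was at 10.54, 10.43 and 10.38 in GMP and 9.08, 7.66 and 8.11 in MEP (2.16 ± 0.30, adjusted p = 0.000157), and the proapoptotic Pmaip1, which encodes Noxa, was at 11.09, 10.46 and 9.91 in GMP and 7.69, 6.74 and 6.94 in MEP (3.37 ± 0.34, adjusted p = 9.7e-06). On the side of MEP, Bik was at least 2.1-fold higher (adjusted p = 0.000708), Bcl2l13 differed by -0.89 ± 0.20, Bcl2l11, which encodes Bim, by -1.63 ± 0.47 and Bbc3, which encodes Puma, by -1.52 ± 0.40. Bcl2l11 was not called without either array that has no number, GMP replicate 1, MEP replicate 1 or GMP replicate 2 (adjusted p up to 0.1), and Bbc3 was not called without the GMP array that has no number, MEP replicate 1, GMP replicate 2 or MEP replicate 2 (up to 0.0633). The number higher in MEP was 2 without the GMP array that has no number, MEP replicate 1 or GMP replicate 2. Bcl2l1, the survival gene of erythroid cells, was at 6.70, 7.08 and 6.91 in GMP and 6.51, 6.10 and 6.30 in MEP (0.60 ± 0.33, adjusted p = 0.308).

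Adhesion and homing genes were on the GMP side, 24 of 37 (64.9%), with 2 higher in MEP. Cd93 was at 14.61, 14.34 and 14.25 in GMP and 10.61, 9.02 and 9.57 in MEP (4.66 ± 0.33, adjusted p = 4.53e-07), the leukocyte integrin chain Itgal differed by 3.23 ± 0.20, its β chain Itgb2 by 1.32 ± 0.37, the selectin ligand Selplg by 2.34 ± 0.17 and the chemokine receptor Cxcr4, which holds progenitors in marrow, by 1.92 ± 0.51. Itgb2 was not called without either array that has no number, GMP replicate 1 or GMP replicate 2 (adjusted p up to 0.099) or with the replicate number as a block (0.0683), and Cxcr4 was not called without the GMP array that has no number, MEP replicate 1 or MEP replicate 2 (up to 0.08). The integrin chains by which all progenitors bind stroma, Itga4 (-0.58 ± 0.22) and Itgb1 (-0.45 ± 0.24), were not called. Cd82 (-1.80 ± 0.29) and endoglin, Eng (-1.89 ± 0.20), were the genes higher in MEP. With the scanning run as a block 5 were higher in MEP. Of 19 genes of antigen presentation, 8 (42.1%) were higher in GMP and none in MEP, against 10.3% and 8.26% of all gene names. The 8 included the peptide exchange genes H2-DMb1 (2.74 ± 0.21) and H2-DMa (1.96 ± 0.21), cathepsin S and the proteasome subunit Psmb8 (2.12 ± 0.22). The class II chains H2-Aa (0.24 ± 0.74), H2-Ab1 (0.50 ± 0.52) and their chaperone Cd74 (0.06 ± 0.45) were not called. Interferon-stimulated genes were divided, with 7 of 40 (17.5%) higher in GMP and 13 (32.5%) in MEP. Isg20 was at 8.90, 8.63 and 8.84 in GMP and 12.24, 12.40 and 12.30 in MEP (-3.53 ± 0.27, adjusted p = 8.36e-07) and Oasl1 at 7.50, 7.66 and 8.20 in GMP and 10.55, 11.33 and 11.21 in MEP (-3.25 ± 0.31, adjusted p = 4.91e-06), and the regulator Irf7 (-2.16 ± 0.52) and Isg15 (-1.94 ± 0.35) were likewise higher in MEP. In GMP, Ifitm1 was at 10.61, 10.22 and 10.85 in GMP and 7.79, 7.17 and 7.47 in MEP (3.08 ± 0.20, adjusted p = 2.91e-07) and the guanylate-binding proteins Gbp3 (2.87 ± 0.24) and Gbp2 (1.02 ± 0.23) were higher. The number higher in GMP was 4 without MEP replicate 1 or GMP replicate 2.

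The study also profiled miRs, short RNAs that pair with mRNAs through their seed, and named 4 mRNAs as targets of miR-144, a miR of the erythroid lineage. The study predicted targets from inverse expression over all of its populations together with sequence-based prediction. In its luciferase assays miR-144 lowered reporter activity through the untranslated regions of all 4. The list was chosen by the study on these populations, so it is not independent evidence of its direction. The mature sequence from RefSeq (GRCm38.p6, chr11:78073047-78073066, plus strand) is shown with the seed, bases 2 to 8, in capitals.
mmu-miR-144-3p: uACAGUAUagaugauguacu

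Of the 4 targets, Meis1 was higher in GMP, at 6.25, 6.70 and 6.46 in GMP and 4.59, 4.31 and 4.82 in MEP. This probe was well above background on no MEP array and was at least 3.24-fold higher in GMP (adjusted p = 4.94e-05). Bach2, a repressor of B cells, was at 5.61, 6.14 and 6.13 in GMP and 7.18, 6.90 and 6.90 in MEP and higher in MEP (-1.03 ± 0.19, adjusted p = 0.00162, and 0.0667 with the replicate number as a block). Trp53inp1 (-0.42 ± 0.28, adjusted p = 0.415) and Mycn (1.06 ± 0.56, adjusted p = 0.273) were not called. The 4 mRNAs thus had no common direction between GMP and MEP. Whether they are targets was not tested here. Without the MEP array that has no number, the number higher in GMP was 2.

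The CMP arrays gave a point of reference, although CMP was a group of its own in the fit and no test was made of its place. The CMP mean was nearer to the GMP mean for 77.6% of the 2885 gene names higher in GMP and for 77.7% of the 2321 higher in MEP, so it lay nearer to GMP on both sides. It lay between the populations for 1827 and 1594 of them. It lay above both for 941 of the gene names higher in GMP, and below both for 596 of those higher in MEP. Epor, at a CMP mean of 11.04 ± 0.54 (SD, n = 3), and Gata1, at 10.13 ± 0.60 (SD, n = 3), were between both populations.

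The runs were last set against each other. Of 6838 gene names called within run 1 and measured in run 2, 95.9% had the same sign in run 2, which held 1 array of each population. Among the 21243 not called within run 1, 62.8% had the same sign. The median size of the difference among the called was 1.20 in run 1 and 1.13 in run 2. The plot of both runs shows this together with the late neutrophil genes, the list that departed from it most, with 17 of 26 members of opposite sign.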

How the data were processed

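Total RNA of sorted mouse bone marrow populations was hybridized by the authors to single-color (Cy3) Agilent 4x44k whole mouse genome arrays, and 3 GMP and 3 MEP of the 17 arrays were compared. The deposited scanner files hold the processed signal of Feature Extraction, an intensity per spot that the authors' software had already corrected for background. The table of the whole series deposited by the authors holds log2 values, quantile normalized from median spot intensities, and was used as an alternative only.

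After 1639 control spots were left out, log2 of the processed signal was quantile normalized over the 17 arrays, spots of one probe were averaged, and 41174 probes were fitted with limma 3.58.1 (R 4.3.3), with a mean per population, so that all populations shared the estimate of spread (11 residual degrees of freedom). P-values were two-sided and adjusted by Benjamini-Hochberg over all probes, with a threshold of 0.05. Each of 28090 gene names was read by its brightest probe (8783 have several), and 19849 matched RefSeq. Gene names are those of the array design or their RefSeq symbols, and probe positions are those of the design (mm9). A simulation of 41015 probes used independent noise on each array, without an effect of scanning run or slide. In it 21% of 100 probes changed by 1 and 66% of 100 changed by 2 were recovered, none with the wrong sign. Among its unchanged probes 4 were called. In the data the correlation within slides was 0.361, so these numbers need not carry over to the arrays. Depth does not apply to arrays.

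Same-numbered arrays deviated together from their population means (correlations 0.419, 0.131 and 0.256 for the arrays without a number and replicates 1 and 2). The replicate number was therefore used as a block in an alternative, fitted to the 6 GMP and MEP arrays alone. Differently numbered pairs correlated from -0.313 to 0.152, the highest being GMP replicate 2 with MEP replicate 1, which share a scanning run. That value lies above the one of replicate 1. Nothing in the labels says what a number shares. The replicate 1 arrays of both populations lay on one slide and the replicate 2 arrays on another, so number and slide cannot be told apart there. Genes were named by rule: the 10 widest differences each way among called, nonoverlapping symbols well above background on all 6 arrays, the 5 largest bounds each way, called sort markers, factors and receptors that differed by at least 1, and up to 4 called members each way of every other list. Further members, including those not called, were chosen after their values were seen, and a few genes are not reported here. The comparison and the gene lists were chosen with earlier results of these data known. Alternatives were the 75th percentile as scale, normexp background correction (offset 50), the table of the whole series, only probes above background on 3 or more of the 6 arrays, fewer arrays in the fit, blocks for scanning run, slide and replicate, the mean over a gene's probes, and fits that dropped 1 array each. The arrays without a number alone were added after seeing the data.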

Additional observations from a re-analysis of the deposited data

How the results depend on the processing

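The number of gene names called between GMP and MEP was 5206, and of probes 7152. Leaving out each of the 6 arrays in turn gave from 4352 to 4788 gene names and from 5913 to 6539 probes. With the replicate number as a block, which pairs the arrays, 5277 gene names and 7416 probes were called. That fit held the 6 arrays alone (2 residual degrees of freedom). The 6 arrays alone without a block gave 4938 gene names and 6915 probes. The fit with the block ended the calls of 29 named genes, gave 4 others a call and turned none. Without the block, the 6 arrays alone ended the calls of 22, so the 29 cannot be put down to the block. The scanning run as a block gave 7476 gene names and 10458 probes, and run 1 alone gave 6842 and 9732. The other scalings, filters, blocks and fits gave from 4919 to 6297 gene names. The arrays without a number alone, a setting chosen after seeing the data with 1 array of each population and the spread of the other populations, gave 2201 gene names and 2958 probes, and 1911 of the 5206 gene names kept their call and sign in it.

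Among 351 genes, those of the naming rule and others named, 1 changed direction. Cd47, not called by its brightest probe, was called higher in GMP by the mean of its probes (0.59). Of 6298 values, 5881 kept their side of the threshold, 335 of 112 genes lost it and 81 of 28 genes gained it. Leaving out 1 array moved the fold of 38 of the 292 called ones by over 1.5 times, 30 of them without the MEP array that has no number. Scaling to the 75th percentile moved the median of all gene names from -0.07 to -0.44. Signal near background limits the folds of 668 gene names higher in GMP and 355 higher in MEP.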
